A study of Sus scrofa with 2 samples.

Results

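CD36, FABP4, CIDEA and CIDEC are genes of fatty acid uptake and of the lipid droplet, and their transcripts were compared here in longissimus dorsi muscle (LM) of Shaziling and Yorkshire pigs. A unigene, that is an assembled transcript sequence, was assigned to one of these genes when its best protein match was a pig RefSeq protein of that gene. By this rule 7 of the 65535 unigenes of the table belonged to the 4 genes, with 2 unigenes for CD36, 1 for FABP4, 3 for CIDEA and 1 for CIDEC. These are 4 of the 4484 genes that received a pig symbol, and the unigene with the highest mean level represented each gene. Muscle was taken from 3 male full-sib pigs of each breed at 25 days of age, with no treatment in either group. Shaziling is a Chinese indigenous fat-type breed and Yorkshire is a lean breed. The sample titles were followed for the breed, and the deposited column names carry the same breeds, although another field of the sample records has the class of the opposite breed. Each breed has 1 column of reads for its 3 pigs, so no difference below has a replicate check, breed cannot be told apart from family, and the spread between pigs is not known.

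Long-chain fatty acids enter muscle fibres from the capillaries. CD36 is a membrane protein that takes them up at the plasma membrane of muscle fibres, adipocytes and capillary endothelium, and it is also found on macrophages. FABP4, the adipocyte fatty acid-binding protein, carries fatty acids in the cytosol of adipocytes and is also made by capillary endothelium and macrophages. CIDEA and CIDEC belong to the CIDE family of lipid droplet proteins, which promote the transfer of lipid between droplets and so the growth of large droplets, and both are best known from fat cells. In muscle, lipid is held in small droplets within the fibres and in adipocytes that lie between them, which together make up intramuscular fat.

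The values are whole reads and RPKM, that is reads divided by unigene length and library size. The RPKM values rest on totals of 33949238 reads for Yorkshire and 28305925 for Shaziling. Unigenes were called different between the libraries at a fold change of 2 or more and a false discovery rate (FDR) of 0.05 or less in an exact binomial test (two-sided) of its reads. This test compares 2 libraries, not 2 breeds. All intervals are exact 95% intervals that cover counting error only. The skeletal muscle origin of both libraries was checked with a list of fast fibre and skeletal muscle genes, 7 of whose 16 members were found. MYH4, the fast myosin heavy chain gene, reached 2748 RPKM in the Yorkshire library and 6978 RPKM in the Shaziling library. This list cannot tell LM from other fast muscles. In Yorkshire, 46.4% of the library total lay on 2 unigenes of mitochondrially encoded genes, against 11.8% in Shaziling, and these reads are part of the totals by which all RPKM values are divided. Over the 2363 unigenes at 10 RPKM or above in each library, the log2 ratio of Shaziling to Yorkshire had a median of 0.35, and of -0.36 when those reads were left out of the totals.

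The 4 genes fell into a pair of abundant transcripts and a pair of scarce ones. CD36 and FABP4 were far above CIDEA and CIDEC in both libraries, and the RPKM of all 4 was higher in Shaziling. The higher level was past the thresholds for CIDEA and CIDEC and not for CD36 and FABP4, whose ratios were below 2. With 1 library per breed and 24.5% of all unigenes called higher in Shaziling (7.45% in Yorkshire), 2 of 4 genes is a description of these genes. Among the genes with a pig symbol, 35.6% were called higher in Shaziling and 3.19% in Yorkshire.

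**Figure D1:**
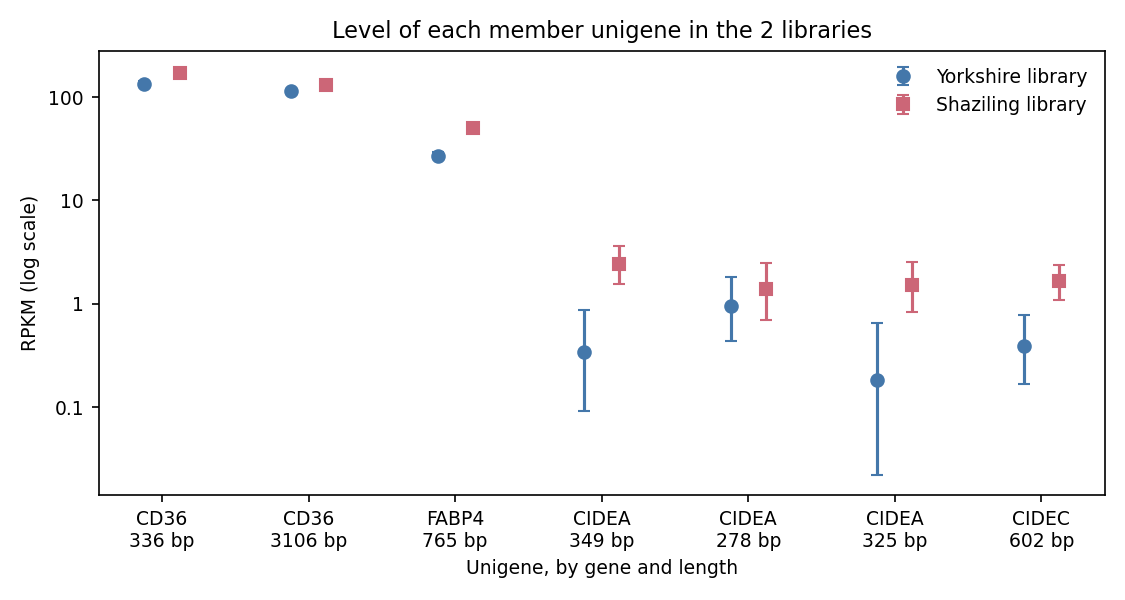
RPKM (log scale) of the 7 unigenes of CD36, FABP4, CIDEA and CIDEC in the Yorkshire library (circles) and the Shaziling library (squares), with exact 95% Poisson intervals on the reads. The CD36 and FABP4 unigenes lie between 27.1 and 171, and those of CIDEA and CIDEC between 0.181 and 2.43, with intervals that overlap between the libraries for the CIDEA unigene of 278 bp.

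CD36 was the most abundant of the 4 genes. Its representing unigene (contig_6356, 336 bp) received 1541 reads in Yorkshire, at 135 RPKM, and 1622 in Shaziling, at 171 RPKM. The longer unigene (contig_690, 3106 bp) received 12093 reads in Yorkshire, at 115 RPKM, and 11454 in Shaziling, at 130 RPKM. The levels of the libraries were close to each other on both unigenes, with Shaziling slightly higher. Both unigenes had the CD36 protein of 472 residues as their match. The long unigene was longer than the 1419 bp that code for this protein, whereas the short one corresponded in length to 23.7% of them. As a ratio of Shaziling to Yorkshire this gave 1.26 (95% confidence interval 1.18 to 1.35) for the short unigene and 1.14 (1.11 to 1.17) for the long one. Both lay above 1 by more than the counting error and below the threshold of 2. The log2 fold change with a pseudocount of 1 was 0.33 and 0.18, respectively. This pseudocount pulls the values of scarce transcripts towards 0, and the calls used the ratios without it.

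The level of CD36 stood above that of 98.9% of the genes with a symbol in Yorkshire and of 98.8% in Shaziling. Among the 161 unigenes within 1.5 times its mean RPKM, 61.5% had a ratio at least as high, and their median ratio was 1.63. Most unigenes of similar abundance thus had a higher ratio than CD36. The unigenes of this gene differed by 0.15 in log2 ratio. Over 179 genes with 2 or more unigenes of at least 100 reads, the median difference between the 2 most abundant was 0.57 and the upper quartile 1.19, and 88.8% of the genes had a larger difference than CD36.

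FABP4 was represented by 1 unigene (contig_1418, 765 bp), longer than the 399 bp that code for its protein of 132 residues. Yorkshire had 703 reads on it, at 27.1 RPKM, and Shaziling 1093 reads, at 50.5 RPKM. Its ratio was 1.86 (1.69 to 2.05) and the log2 fold change 0.87, so the upper bound of the interval, but not the ratio, exceeded the threshold of 2. The exact binomial test on the reads gave an FDR of 1.6e-37, and this value does not include the spread between pigs. FABP4 stood above 94.5% of the genes in Yorkshire and 95.6% in Shaziling. Among 756 unigenes of similar level, the median ratio was 1.45 and 35.1% had a ratio at least as high.

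CIDEA was covered by 3 short unigenes, none of which reached the length of the coding sequence. The representing unigene (contig_55305, 349 bp) received 4 reads in Yorkshire, at 0.338 RPKM, and 24 in Shaziling, at 2.43 RPKM. The unigene contig_73950 (325 bp) had 2 and 14 reads, with an RPKM of 0.181 and 1.52. The unigene contig_44000 (278 bp) had 9 and 11 reads, with an RPKM of 0.954 and 1.40. The first pair matched a predicted CIDEA protein of 210 residues and the latter one a predicted form of 219 residues. The ratio of Shaziling to Yorkshire was 7.20 (2.47 to 28.5) for contig_55305 and 8.40 (1.93 to 76.1) for contig_73950, and both were called (FDR 8.1e-05 and 0.0028, exact binomial test). For contig_44000 the ratio was 1.47 (0.552 to 4.002), and it was not called (FDR 0.643). The ratio of contig_55305 was 4.73 times that of contig_44000 (1.04 to 25.9), so the size of the CIDEA difference depended on the unigene. Summed over the 3 unigenes, CIDEA had 15 reads in Yorkshire and 49 in Shaziling, and its ratio of 3.92 (2.16 to 7.52) was below that of the representing unigene.

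CIDEC was represented by 1 unigene (contig_51587, 602 bp), which corresponded to 92.9% of the coding length of the matched protein of 215 residues. Yorkshire had 8 reads on it, at 0.391 RPKM, and Shaziling 28 reads, at 1.64 RPKM. The ratio was 4.20 (1.86 to 10.7), which is 2.07 on the log2 scale, and the FDR of the exact binomial test was 0.00067. With a pseudocount of 1, the log2 fold change was 0.93. The intervals of its RPKM did not overlap between the libraries, with 0.169 to 0.771 in Yorkshire and 1.09 to 2.37 in Shaziling.

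CIDEA and CIDEC were near the lower end of the genes with a symbol in Yorkshire and less so in Shaziling. CIDEA stood above 10.6% of these genes in Yorkshire and 36.9% in Shaziling, and CIDEC above 12.2% and 24.7%. At these levels large ratios were common. Among 14847 unigenes within 1.5 times the mean RPKM of CIDEA, 8.12% had a ratio at least as high, and 29.9% were called higher in Shaziling. For CIDEC these shares were 18.7% and 28.4% of 20261 unigenes. The unigenes of similar level that had a protein match were short as well, with a median length of 732 bp around CIDEA and 561 bp around CIDEC.

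**Figure D2:**
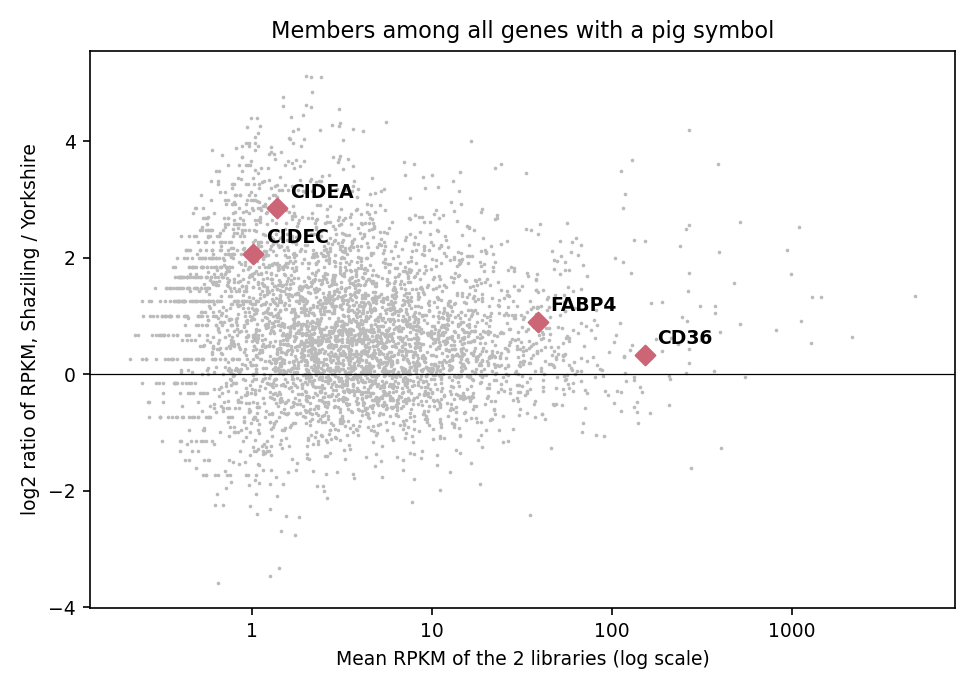
Mean RPKM of the 2 libraries (log scale) against the log2 ratio of Shaziling to Yorkshire for the 4484 genes with a pig symbol (grey points), with CD36, FABP4, CIDEA and CIDEC marked by diamonds. In genes where a library had fewer than 3 reads, 3 reads were used. CIDEA and CIDEC lie at a mean RPKM of 1.38 and 1.02, where the points spread widely, and CD36 at 153.

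The order of the levels was CD36, FABP4 and then the CIDE genes in both libraries. CD36 was 4.99 times as high as FABP4 in Yorkshire and 3.38 times in Shaziling. By the representing unigenes, FABP4 was 80.2 times as high as CIDEA and 69.2 times as high as CIDEC in Yorkshire. In Shaziling it was 20.8 and 30.7 times as high. By the same unigenes, CIDEC was the higher of the CIDE genes in Yorkshire and CIDEA in Shaziling. In both libraries their RPKM intervals overlapped, so their order was not resolved. Summed over its unigenes, CIDEA was at 0.464 RPKM in Yorkshire and 1.82 RPKM in Shaziling, above CIDEC in both libraries.

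Because all genes of a library share its total, the ratio of one gene relative to that of another does not depend on the scaling of the libraries. The ratio of FABP4 was 1.48 times that of CD36 (1.31 to 1.66). The ratio of CIDEA was 5.70 times that of CD36 (1.95 to 22.6) and 3.86 times that of FABP4 (1.32 to 15.4). The ratio of CIDEC was 3.32 times that of CD36 (1.47 to 8.47) and 2.25 times that of FABP4 (0.992 to 5.75), so the latter difference was within the counting error. CIDEC and CIDEA could not be separated (0.588, with an interval of 0.115 to 2.53). With the reads summed over all unigenes of a gene, the ratio of CIDEA was 3.41 times that of CD36 (1.88 to 6.54) and 2.10 times that of FABP4 (1.15 to 4.06), and the ratio of FABP4 was 1.62 times that of CD36 (1.47 to 1.79). CD36 thus had the lowest ratio of the 4 genes, within these libraries.

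**Figure D3:**
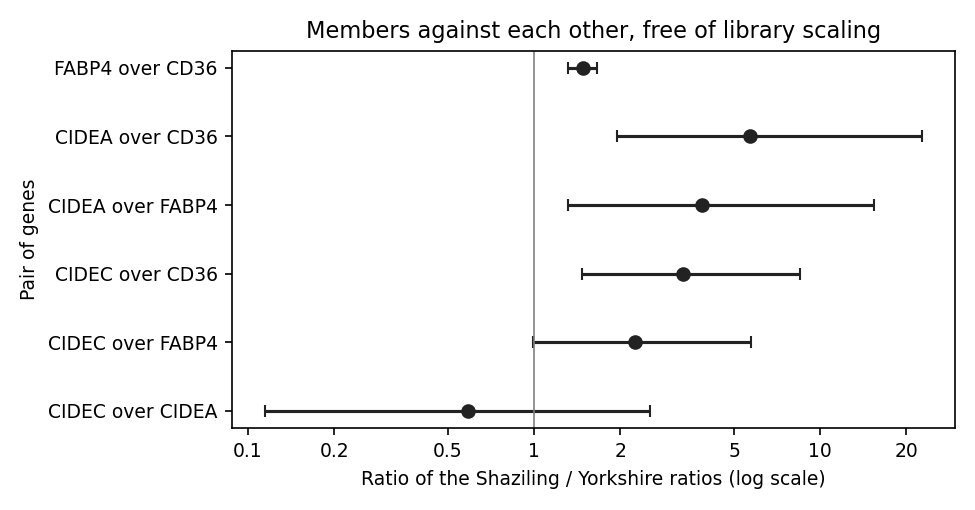
Ratio of Shaziling to Yorkshire of one gene divided by that of another (log scale), for the 6 pairs of CD36, FABP4, CIDEA and CIDEC, with exact conditional 95% intervals on the reads of the representing unigenes. The intervals of FABP4, CIDEA and CIDEC over CD36 lie above 1, that of CIDEC over FABP4 reaches 0.992, and that of CIDEC over CIDEA includes 1.

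For the representing unigenes, the direction of CD36 depended on the scaling of the libraries, and that of the others did not. After rescaling to the same RPKM sum, the ratio of CD36 was 0.936 (0.872 to 1.004). It was 0.988 (0.921 to 1.06) with the median log2 ratio set to 0, 0.931 (0.868 to 0.999) with TMM scaling, and 0.767 (0.715 to 0.823) with totals that leave out the mitochondrial unigenes. These scalings multiply each ratio by a factor from 0.608 to 0.783. The longer CD36 unigene, at 1.14 (1.11 to 1.17) with the deposited values, thus has an interval below 1 under each of them. FABP4 stayed above 1 under each of these scalings, from 1.13 (1.03 to 1.25) without the mitochondrial unigenes to 1.46 (1.33 to 1.61). CIDEA had a ratio from 4.37 to 5.63 under these scalings and CIDEC from 2.55 to 3.29, and both remained called. The CIDEA unigene contig_44000, at 1.47 (0.552 to 4.002) with the deposited values, falls below 1 without the mitochondrial unigenes (factor 0.608). The lowest value of CIDEC had an FDR of 0.0456 (exact binomial test), close to the threshold.

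**Figure D4:**
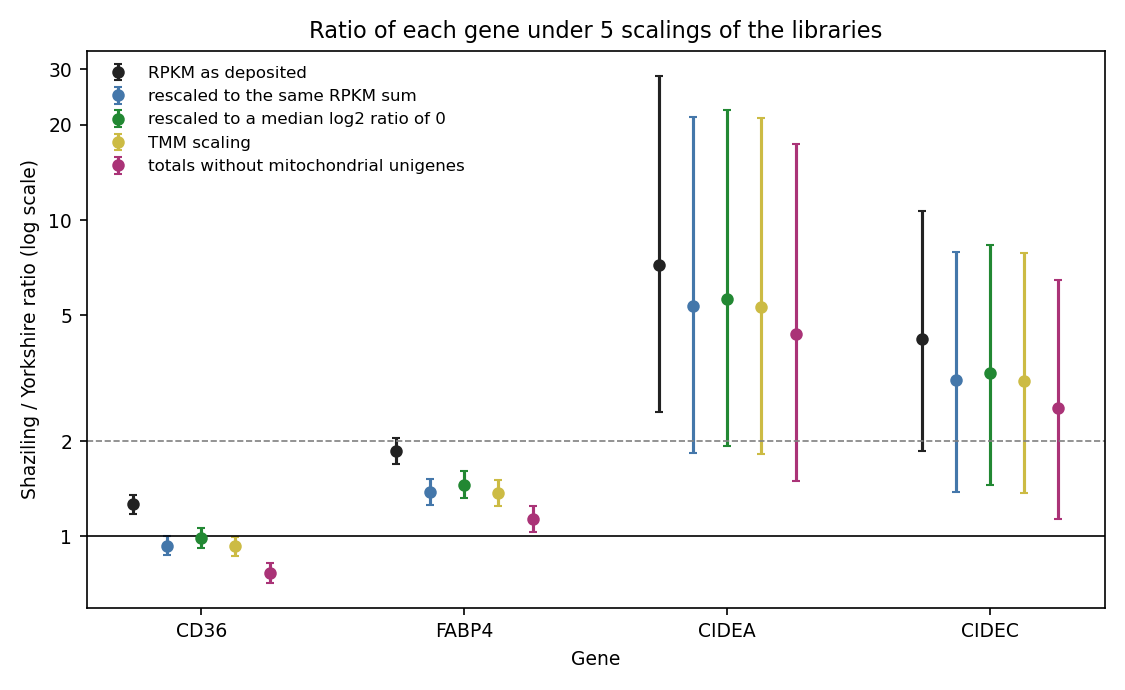
Ratio of Shaziling to Yorkshire (log scale) for the representing unigenes of CD36, FABP4, CIDEA and CIDEC. Values are shown with the deposited RPKM values and under 4 other scalings of the libraries, with exact 95% intervals on the reads. The solid line marks a ratio of 1 and the dashed line a ratio of 2. CD36 is at 1.26 with the deposited values and below 1 under the others, FABP4 stays between 1.13 and 1.86, and CIDEA and CIDEC stay above 2.

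The relatives of these genes were taken from the lists of fatty acid uptake and of lipid droplet genes. FABP5, the epidermal fatty acid-binding protein, was at 44.2 RPKM in Yorkshire and 54.3 RPKM in Shaziling and was not called, with a ratio of 1.23 (1.16 to 1.29). FABP4 was below FABP5 in Yorkshire and close to it in Shaziling, at 0.613 and 0.930 times its RPKM, and its ratio was 1.52 times that of FABP5 (1.36 to 1.69). The ratio of the representing CD36 unigene relative to FABP5 was 1.03 (0.941 to 1.12), while the longer CD36 unigene had a ratio of 1.14 (1.11 to 1.17). FABP3, the fatty acid-binding protein of heart and muscle, was not analysed here. PLIN2, a droplet coat protein found in most tissues, received 1279 reads in Yorkshire (22.3 RPKM) and 2918 in Shaziling (60.9 RPKM), a ratio of 2.74 (2.56 to 2.92). PLIN5, a droplet coat protein of oxidative tissues, received 76 reads in Yorkshire (1.02 RPKM) and 378 in Shaziling (6.07 RPKM), a ratio of 5.97 (4.65 to 7.74). Both were called higher in Shaziling, PLIN5 under each scaling and PLIN2 under each except totals without the mitochondrial unigenes. The ratio of CD36 was 0.461 times that of PLIN2 (0.419 to 0.508), and that of FABP4 was 0.682 times that of PLIN2 (0.606 to 0.766). PLIN1, PLIN3, PLIN4 and CIDEB were not analysed here.

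Of 24 genes of fatty acid uptake and binding, 12 were found, with a median ratio of 1.30. Of these, 3 (25%) were called higher in Shaziling, beside 35.6% of all genes with a symbol, and 0 in Yorkshire, beside 3.19%. Under the 4 other scalings 1 or 2 were called higher in Shaziling. The median ratio over all genes with a symbol was 1.60. Among the 3 called with the deposited values was CAV3, the caveolin of muscle, at 20.4 RPKM in Yorkshire and 55.2 RPKM in Shaziling. It had a ratio of 2.71 (2.505 to 2.932) and was not called with TMM scaling or totals without the mitochondrial unigenes. ACSL1, which activates fatty acids to acyl-CoA, was at 70.2 RPKM in Yorkshire and 64.8 RPKM in Shaziling, and GOT2, a mitochondrial aminotransferase that has also been described as a fatty acid-binding protein of the plasma membrane, had 138 and 128. DBI, which binds acyl-CoA, had 32.8 and 43.5. The 6 most abundant of these genes, CD36 and FABP4 among them, had ratios from 0.923 to 1.86.

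Of 21 genes of the droplet coat and its assembly, 6 were found, with a median ratio of 3.47. Of these, 4 were called higher in Shaziling (CIDEA, CIDEC, PLIN2 and PLIN5), beside 35.6% of all genes with a symbol. CIDEA and CIDEC are themselves part of this count and median, so the list is no separate background for them. With totals without the mitochondrial unigenes 3 were called. FITM2, which partitions triglyceride into droplets, and ABHD5, the co-activator of the lipase ATGL, had ratios of 1.07 (0.923 to 1.25) and 1.05 (0.880 to 1.26). Of 17 genes of triglyceride synthesis, 12 were found and 8 were called higher in Shaziling, with a median ratio of 2.39. Under each of the 4 other scalings 4 were called, where 17.3% to 25.6% of all genes with a symbol were called. Among them were GPD1, which makes glycerol 3-phosphate (RPKM 52.3 and 255, ratio 4.88), GPAT4 (ratio 4.24) and GPAT3 (5.08), which start the synthesis of glycerolipids, and DGAT2 (4.35), which forms triglyceride from diacylglycerol, although DGAT2 had 8 and 29 reads. Of 10 lipolysis genes, 2 were found and neither was called with the deposited values. AQP7, the glycerol channel of adipocytes, was at 3.33 RPKM in Yorkshire and 1.95 RPKM in Shaziling, with a ratio of 0.587 (0.434 to 0.788), and was called higher in Yorkshire under each of the 4 other scalings.

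Of 23 genes of mitochondrial fatty acid oxidation, 17 were found and 9 were called higher in Shaziling, with a median ratio of 2.14. Under the other scalings this number was 4 or 5, and 3 were called higher in Yorkshire with totals without the mitochondrial unigenes. ACADS (ratio 4.09) and ACADVL (2.14), which are acyl-CoA dehydrogenases for short and very long chains, were called with the deposited values, whereas the abundant ACADL (1.24), ETFDH (1.53), ETFA (1.08) and HADH (0.794) were not. ACADVL was not called under any of the 4 other scalings, and HADH was among the 3 higher in Yorkshire. Of 20 regulators of lipid genes, 10 were found. KLF15, a transcription factor of muscle and fat metabolism, had 16 and 177 reads and a ratio of 13.3 (7.95 to 23.7), and ESRRA, a nuclear receptor for mitochondrial genes, had a ratio of 4.63. SREBF1, a factor for lipogenic genes, had 0 reads in Yorkshire and 14 in Shaziling and was at least 5.60-fold higher, computed at 3 reads, while the lower bound of the exact interval on the reads was 3.98. MLXIPL, which responds to glucose, was the regulator called higher in Yorkshire, with 18 and 3 reads and a ratio of 0.200 (0.038 to 0.685). This unigene of 252 bp is 1 of 3 of its gene. MLXIPL was not called with its longest unigene or at an FDR of 0.01. PPARA and PPARD, receptors for fatty acids, had ratios of 0.733 and 1.40 and were not called with the deposited values. PPARA was called higher in Yorkshire with totals without the mitochondrial unigenes. PPARG and PPARGC1A were not analysed here. Over the 6 lists together, 29 of the 59 genes found (49.2%) were called higher in Shaziling, beside 35.6% of all genes with a symbol, and 1 (1.69%) was called higher in Yorkshire, beside 3.19%. Without the mitochondrial unigenes in the totals, 16 of the 59 genes were called higher in Shaziling, beside 776 of all 4484 genes (17.3%). In Yorkshire 6 of the 59 were called higher, beside 674 of all 4484 (15.0%).

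**Figure D5:**
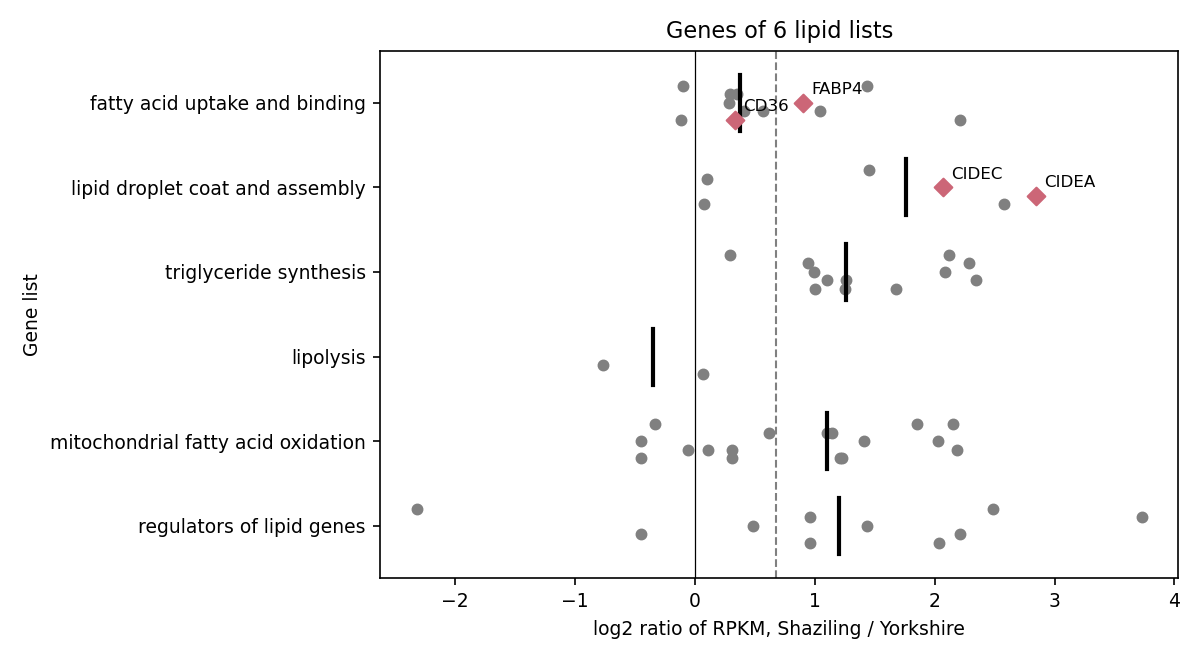
Log2 ratio of Shaziling to Yorkshire for the genes of 6 lipid lists found in the table (points), with the median of each list (bars) and the median of all genes with a symbol (dashed line, 0.68). CD36 and FABP4 are marked among the uptake genes, whose median is 0.38, and CIDEA and CIDEC among the droplet genes, whose median is 1.76. Both medians include the marked genes.

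With the deposited RPKM values, the summed levels of markers of other cells that make these transcripts were also higher in Shaziling. The summed RPKM of all genes with a symbol had a ratio of 1.71, and 35.6% of these genes were called higher in Shaziling. The 4 other scalings multiply each ratio by a factor from 0.608 to 0.783. In bulk tissue, fewer cells of a type and less RNA per cell cannot be told apart. Of 21 adipocyte markers, 5 were found, with a summed RPKM of 83.4 in Yorkshire and 312 in Shaziling, and 3 of them were called higher in Shaziling. The larger part of both sums was GPD1, which muscle also expresses, and 3 of the 5 are the genes FABP4, CIDEA and CIDEC themselves. The remaining marker, AQP7, was in the opposite direction (ratio 0.587). The defining adipocyte genes ADIPOQ, LEP, PLIN1, LIPE and PPARG were not analysed here. Of 15 endothelial markers, 6 were found, with summed RPKM of 50.5 and 89.0 (a ratio of 1.76), and 3 were called higher in Shaziling. The most abundant, PECAM1, was at 29.4 and 40.0 RPKM and had a ratio of 1.36 (1.30 to 1.42), while VWF was at 0.521 and 10.5 RPKM, and ERG had a ratio of 0.713. The ratio of the representing CD36 unigene was 0.930 times that of PECAM1 (0.854 to 1.01), a difference within the counting error. The longer CD36 unigene had a ratio of 1.14 (1.11 to 1.17), an interval below that of PECAM1. The ratio of FABP4 was 1.37 times that of PECAM1 (1.23 to 1.53). Of 15 macrophage markers, 8 were found, with summed RPKM of 58.9 and 127 (a ratio of 2.16). Of these, 5 were called higher in Shaziling, among them CD74, C1QA and CSF1R, while FCER1G had a ratio of 0.761. With totals without the mitochondrial unigenes, 2 of the macrophage markers were called higher in Shaziling and 2 in Yorkshire, and CD74 was not called under any of the 4 other scalings. Of 10 slow oxidative fibre markers, 3 were found, with summed RPKM of 667 and 906 (a ratio of 1.36). Of these, MYL3 was called higher in Shaziling (ratio 4.29) and MYOZ2 higher in Yorkshire (ratio 0.327). Of 16 fast fibre and skeletal muscle genes, 7 were found, with summed RPKM of 6358 and 15518 (a ratio of 2.44). Among these 7, 6 were called higher in Shaziling with the deposited values, and 2 under each of the 4 other scalings. Of 14 housekeeping genes, 5 were found, with a median ratio of 1.57, and 2 were called higher in Shaziling. The part of these cells and fibres in the levels of CD36, FABP4, CIDEA and CIDEC was not tested.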

How the data were processed

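RNA-seq data of 1 library column per breed were used, and the pooling of the 3 pigs is not stated in the sources used here. The authors assembled reads with CLC Genomics Workbench and CAP3 into unigenes and matched these to nr by BlastX. The deposited counts are whole reads per unigene without normalization, and their counter is not given in the sources used here. RPKM values were deposited as well, which the authors obtained with Qualimap. The submitters' processing notes name TopHat2 2.0.6, CASAVA 1.8 and a mouse build, so no coordinates are given. The unigene length was deposited in bp.

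Symbols came from pig RefSeq protein accessions (Sscrofa11.1), and 5698 of 21369 matched unigenes received 1 of 4484 symbols. Genes whose match was to another database or species are not analysed here. Genes may also be absent because the table holds fewer unigenes than the paper reports. No line of the table of DEGs used here named a member (0 found). The exact binomial test used Benjamini-Hochberg adjustment over 65535 unigenes. It was tested on simulated data. No edgeR or DESeq2 test was possible without replicates. For calls, libraries with fewer than 3 reads were set to 3. Members and lists were chosen with earlier results of these data known. The text names every member unigene and, of each list, genes among the 6 most abundant and the 4 with the largest ratio, besides FABP, PLIN and CIDE genes. Not all genes that the rule selects are reported here. Comparisons with unigenes of similar level and between pairs of genes were added after the values were seen. Alternatives were other thresholds, pseudocounts, scalings (TMM by edgeR 4.0.16), unigenes, and the DEGseq model rewritten from its description. Python 3.11.15, scipy 1.17.1 and R 4.3.3 were used. The number of unused columns with per-sample values was 0.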

Additional observations from a re-analysis of the deposited data

How the results depend on the processing

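No paired analysis was possible because each breed has 1 library. Among the representing unigenes, CD36 was the gene that changed direction. Its log2 fold change, 0.33 with the deposited RPKM values, was -0.095 after equalizing the RPKM sums, -0.017 with the median log2 ratio set to 0, -0.10 with TMM scaling and -0.38 with totals without the mitochondrial unigenes. FABP4, CIDEA and CIDEC kept their direction and their call in the 8 alternatives, but several of these could not change them. Calls used the ratio without a pseudocount, FABP4 and CIDEC have 1 unigene each, and the longest CIDEA unigene is the representing one. The 4 scalings, and for CIDEA the sum of its unigenes, were the alternatives that could change a call. The log2 fold changes of FABP4, CIDEA and CIDEC ranged from 0.18 to 0.90, 0.94 to 2.53 and 0.60 to 1.83, respectively. The values with a pseudocount of CIDEA and CIDEC thus lay on both sides of 1. The number of members called higher in Shaziling was 2, 3 at a fold change of 1.5, where FABP4 was added, and 0 with the DEGseq model on rounded RPKM values, where 2 of the 4 could be tested because CIDEA and CIDEC were rounded to 0 in Yorkshire. Of the lipid genes, 29 were called higher in Shaziling, against 33 at a fold change of 1.5 and 16 at a fold change of 3. The number was 19 after equalizing the RPKM sums, 17 with TMM scaling and 16 with totals without the mitochondrial unigenes. With the DEGseq model it was 1 (GPD1), where 52 of the 59 genes found could be tested, on rounded RPKM values instead of reads. In Yorkshire 1 was called higher (MLXIPL), against 2 at a fold change of 1.5, 2 after equalizing the RPKM sums, 2 with the median log2 ratio set to 0, 2 with TMM scaling and 6 without the mitochondrial unigenes, where AQP7 was among the genes added in each of these settings, and 0 at an FDR of 0.01, with the DEGseq model or with the longest unigene. CIDEA rests on 15 and 49 reads summed over its unigenes and CIDEC on 8 and 28, which limits their precision, and no alternative addresses the spread between pigs.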
